A study of Mus musculus with 5 samples.

Results

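The NF-kB transcription factor family and its direct inhibitors were followed in mouse tissue after ischemic stroke or a sham operation. The genes were Rela, Relb, Rel, Nfkb1 and Nfkb2, which encode the subunits, Nfkbia, Nfkbib and Nfkbie, which encode classical I-kappa-B inhibitors, and Nfkbiz and Bcl3, which encode nuclear I-kappa-B proteins. They were chosen by gene symbol, and all 10 were found among the 51912 genes of the authors' deposited table. Each of the 10 had an adjusted p-value there, as did 17420 genes in all. The libraries came from C57BL/6 mice, 2 of sham-operated and 3 of stroke animals. Animals were anesthetized with ketamine and xylazine, and stroke was made by a silicon-coated filament that closed the middle cerebral artery for 30 minutes. Mice were included at a fall in cerebral blood flow of at least 80%, and their motor deficits were scored at 24 hours. The sources used here do not give the steps of the sham operation, the tissue, the time at which it was taken or the age of the mice. The labels name no genetic change in either group and do not say whether each library came from 1 animal, so p-values measure the spread between these libraries, which may be technical.

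NF-kB proteins act as dimers. In the classical pathway, RELA or REL with p50, the product of Nfkb1, is held in the cytoplasm by I-kappa-B proteins until the I-kappa-B kinase marks these for ubiquitination by SCF with beta-TrCP and for destruction by the proteasome. In the alternative pathway, processing of the Nfkb2 product to p52 releases RELB with p52. BCL3 and I-kappa-B zeta, the product of Nfkbiz, bind p50 or p52 in the nucleus and change which genes are transcribed. Several family genes, Nfkbia, Nfkb2, Relb and Bcl3 among them, are known targets of NF-kB itself. In the brain the pathway is known for its part in the inflammatory response of microglia, astrocytes and endothelium, and TRIM9, the ubiquitin ligase the series is named for, is known to bind beta-TrCP. These statements are background and were not measured here.

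The kappaB element that NF-kB dimers bind was looked for in the promoters, because several of these genes respond to their own products. The table of RefSeq promoters (GRCm38.p6, 250 bases before to 50 after a gene start) held 9 windows of 7 of the genes. Relb, Nfkb1 and Nfkbiz have no entry there. The 10-base kappaB consensus was searched on both strands, and overlapping matches were counted. It was present in 7 of the 9 windows and in 5 of the 7 genes, against 8.46% of all 32851 windows of that length and 9.55% of 27025 genes. Nfkb2 has 3 of these windows, each with a match, and its windows 2 and 3 overlap and share a match, so the windows are not independent. Among windows of genes called higher in stroke the share was 14.2% (17 of 120), and among those of all tested genes it was 10.5%. Counted by gene, the shares were 17.9% of 95 genes called higher and 12.5% of 12092 tested genes. A match is a description of the letters and does not show binding. The following 30-base stretches show the match of each gene that lies closest to its start in its first window, 5′ to 3′ on the strand of the gene, with the matched bases in capitals.
Bcl3, chr7:19822734-19822763, minus strand: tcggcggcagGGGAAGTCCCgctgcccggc
Nfkb2, chr19:46304716-46304745, plus strand: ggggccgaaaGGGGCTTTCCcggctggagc
Nfkbia, chr12:55492657-55492686, minus strand: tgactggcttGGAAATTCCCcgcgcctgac
Rel, chr11:23771041-23771070, minus strand: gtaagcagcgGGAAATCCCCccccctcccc
Nfkbie, chr17:45555584-45555613, plus strand: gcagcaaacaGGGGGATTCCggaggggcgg

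The match of Bcl3 begins 2 bases after the gene start, that of Nfkbia, which reads as the consensus on the other strand, at -29, that of Nfkbie at -106 and that of Rel at -91. Rel has a second match that begins 1 base earlier and overlaps the first, since the sequence reads as a match on either strand. Nfkb2 has 3 matches in its first window, of which 2 overlap in the same way. The first windows of Bcl3, called higher in stroke, and of Nfkb2, with the most matches and no call, are shown whole for comparison, with every match in capitals.
Bcl3, chr7:19822706-19823005, minus strand: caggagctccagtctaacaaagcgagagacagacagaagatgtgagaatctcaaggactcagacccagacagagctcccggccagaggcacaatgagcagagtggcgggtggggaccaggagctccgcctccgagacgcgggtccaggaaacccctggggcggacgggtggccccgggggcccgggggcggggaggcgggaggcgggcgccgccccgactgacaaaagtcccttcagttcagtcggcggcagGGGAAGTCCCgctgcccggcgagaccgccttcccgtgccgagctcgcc
Nfkb2, chr19:46304487-46304786, plus strand: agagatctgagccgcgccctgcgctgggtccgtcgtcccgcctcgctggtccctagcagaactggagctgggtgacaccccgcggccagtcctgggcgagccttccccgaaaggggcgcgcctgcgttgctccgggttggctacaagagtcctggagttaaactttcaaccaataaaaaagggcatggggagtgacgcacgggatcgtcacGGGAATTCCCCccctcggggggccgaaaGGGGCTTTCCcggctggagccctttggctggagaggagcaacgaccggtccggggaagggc
The windows of Rela and Nfkbib held no match, which says only that these letters are not in these 300 bases.

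The deposited table holds 1 mean, fold change and standard error per gene, and whole reads per library were worked back from these for 9752 of 9781 genes tried, all 10 family genes included. Levels below are normalized reads, meaning reads of a library divided by its size factor, the relative depth the authors' method assigns to it. Size factors were 1.16, 1.13 and 1.12 in the stroke libraries, numbered here from the deepest, 0.945 in the deeper sham and 0.734 in the shallower sham library. These names are not tied to the replicate numbers of the labels. The 8-gene choroid plexus list stood apart in the deeper sham library, where its 7 genes with recovered reads summed to 2297 normalized reads, compared with 251 in the shallower sham and 439 to 489 in stroke. The calls of Relb, Bcl3, Folr1 and the NF-kB targets with recovered reads are therefore also given below without that library, while Trim9 and Ttr have no recovered reads and no such value. Neuronal and astrocyte markers were abundant in the authors' deposited table, where Snap25, of neurons, had a mean of 65803 and Slc1a2, of astrocytes, a mean of 102016.

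The question for the family was whether stroke changed the transcripts of the subunits, of their inhibitors, or of both. The authors' deposited table called 2 of the 10 genes at an adjusted p below 0.05, the subunit gene Relb and the nuclear I-kappa-B gene Bcl3, and both rose. Of all 17420 tested genes 1.56% were called in either direction and 0.775% were called higher. Fold changes, on the log2 scale as stroke over sham, were positive for 9 of the 10 genes, with a median of 0.55 against -0.02 over all tested genes. Every stroke library lay above both sham libraries for Relb, Bcl3 and Nfkbie, 3 of the 10, against 10.7% of the 9743 tested genes with recovered reads. For no family gene did all stroke libraries fall under both sham libraries, against 1491 of those 9743 genes. In bulk tissue, fewer cells of a type and less RNA per cell cannot be told apart.

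**Figure D1:**
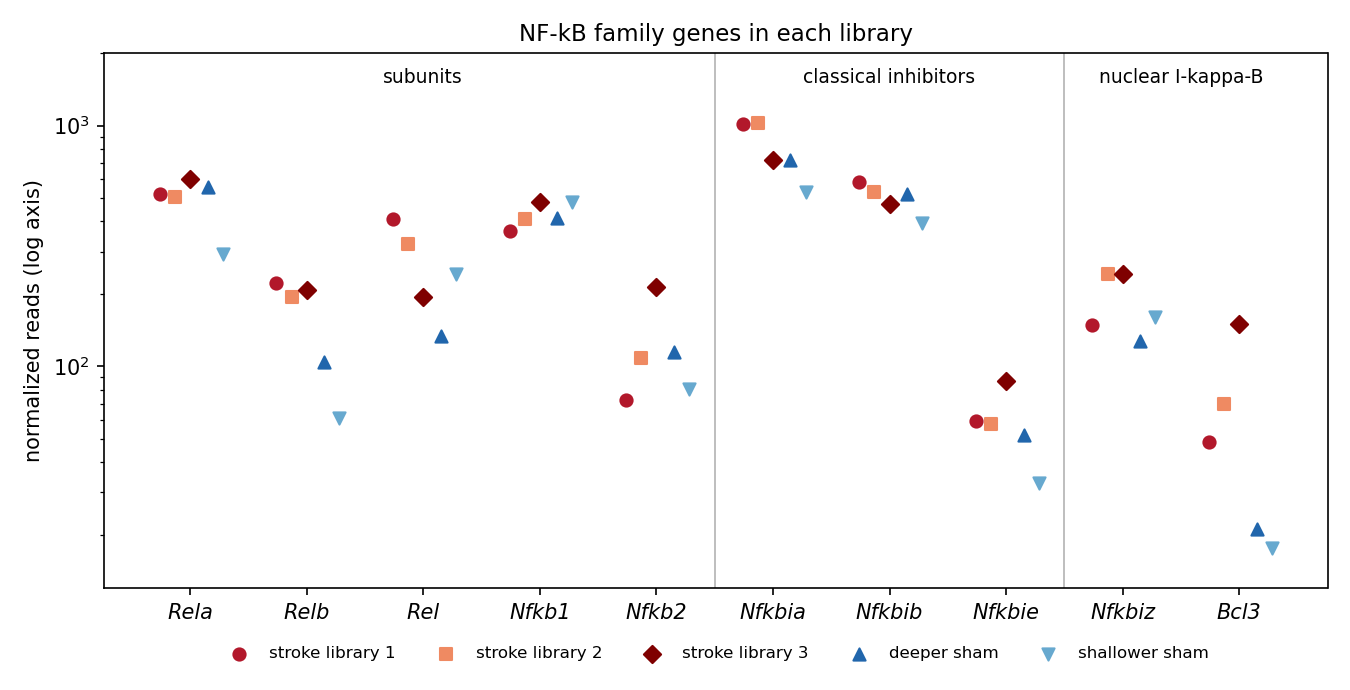
Normalized reads (vertical axis, log scale) of each NF-kB family gene in the 5 libraries, 1 point per library, grouped by role. All stroke points lie above both sham points for Relb, Nfkbie and Bcl3, and the groups overlap for the other 7 genes.

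Relb (ENSMUSG00000002983, chromosome 7, 19606217 to 19629438, minus strand, GRCm38) encodes the subunit that pairs with p52 in the alternative pathway. Its normalized reads were 221, 194 and 207 in stroke libraries 1, 2 and 3, with 105 in the deeper sham and 61.3 in the shallower sham. The stroke libraries lay close together (207 ± 13.8, SD, n = 3), and the lowest of them was well above the higher sham library. These values rest on 219 to 256 reads in each stroke library and on 99 and 45 reads in the sham libraries. The authors' deposited table gave Relb a log2 fold change of 1.31 (SE 0.36, 95% interval 0.61 to 2.01, adjusted p = 0.0225), or 2.48-fold. The recovered reads were fitted again without each library in turn, in a negative binomial test at the dispersion the deposited standard error implies, which with all libraries returns the authors' result by construction. In that test the call of Relb held without the deeper sham library (log2 fold change 1.76, adjusted p = 0.0296), but not without the shallower (0.98, adjusted p = 0.759) or without stroke library 1, 2 or 3 (adjusted p = 0.0817, 0.0533 and 0.0610), and across all 9743 genes the calls then fell from 202 to between 43 and 132.

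Rela (ENSMUSG00000024927, chromosome 19, 5637483 to 5648130, plus strand) encodes p65, the main activating subunit of the classical pathway. Its normalized reads were 522, 503 and 598 in stroke libraries 1, 2 and 3, with 554 in the deeper sham and 294 in the shallower sham. Only the shallower sham library was low, and the deeper one fell among the stroke values. The log2 fold change of Rela in the authors' deposited table was 0.35 (SE 0.33, 95% interval -0.29 to 0.99, adjusted p = 0.854). Its sign rested on the shallower sham library, without which the value was -0.03 in the negative binomial test (adjusted p = 0.998).

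Rel (ENSMUSG00000020275, chromosome 11, 23736847 to 23770970, minus strand) encodes c-Rel, the subunit best known from lymphocytes. It had 411, 321 and 194 normalized reads in stroke libraries 1, 2 and 3, with 133 in the deeper sham and 243 in the shallower sham. Stroke library 3 lay between the sham libraries, so the groups overlapped. The authors' deposited table gave Rel a log2 fold change of 0.72 (SE 0.42, 95% interval -0.11 to 1.55, adjusted p = 0.596).

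Nfkb1 and Nfkb2 encode the precursors p105 and p100, from which p50 and p52 are cut, and the precursors themselves act as inhibitors. Nfkb1 (ENSMUSG00000028163, chromosome 3, 135584655 to 135691547, minus strand) had 364, 408 and 480 normalized reads in stroke libraries 1, 2 and 3, with 412 in the deeper sham and 480 in the shallower sham. The groups covered almost the same range, and the log2 fold change in the authors' deposited table was -0.09 (SE 0.25, 95% interval -0.59 to 0.41, adjusted p = 0.976). Nfkb1 was the family gene whose interval reached least far upward. Nfkb2 (ENSMUSG00000025225, chromosome 19, 46304320 to 46312385, plus strand) had 72.6, 109 and 214 normalized reads in stroke libraries 1, 2 and 3, with 114 in the deeper sham and 80.4 in the shallower sham. Stroke library 3 stood alone at the top, and the other stroke libraries fell around the sham values. The authors' deposited table gave Nfkb2 a log2 fold change of 0.43 (SE 0.52, 95% interval -0.59 to 1.46, adjusted p = 0.914), and without stroke library 3 the value was -0.11 in the negative binomial test (adjusted p = 0.983). Exons of Nfkb2 overlap those of Psd on the other strand, which had a mean of 9245 in the authors' deposited table. The sources used here do not say whether counting used strand, so reads of Psd may have been counted for Nfkb2.

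**Figure D2:**
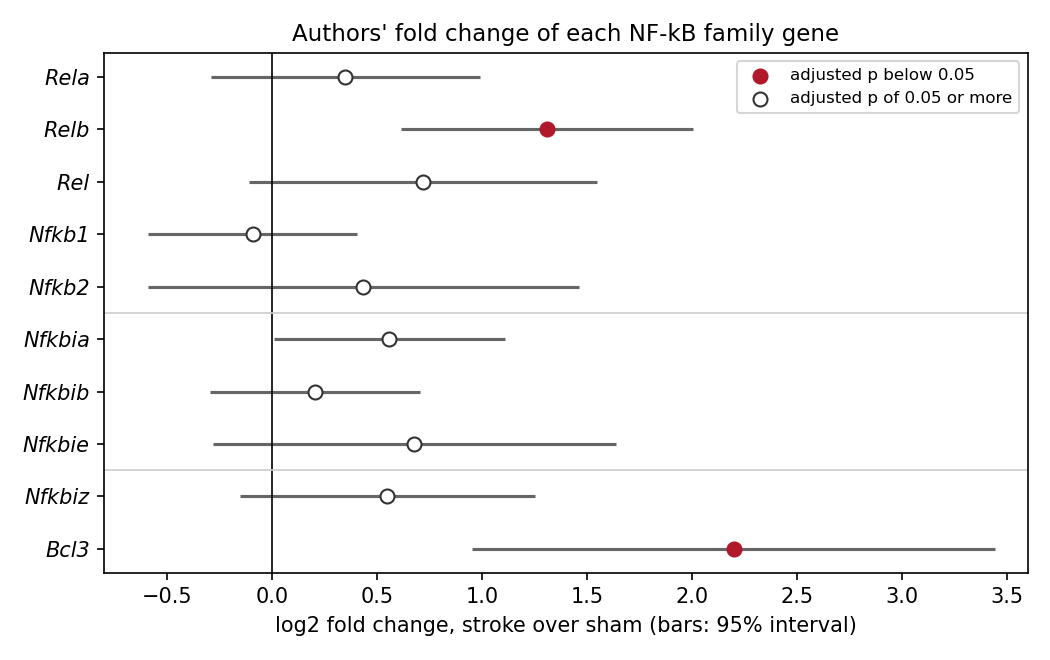
Log2 fold change of stroke over sham in the authors' deposited table (horizontal axis) for each family gene, with 95% intervals. Filled points, Relb at 1.31 and Bcl3 at 2.20, passed an adjusted p of 0.05, and open points did not.

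None of the 3 classical inhibitor genes was called, although all 3 fold changes were positive. Nfkbia (ENSMUSG00000021025, chromosome 12, 55489410 to 55492647, minus strand) encodes I-kappa-B alpha, the inhibitor that NF-kB re-induces to end its own activity. Its normalized reads were 1014, 1028 and 717 in stroke libraries 1, 2 and 3, with 720 in the deeper sham and 529 in the shallower sham. Stroke libraries 1 and 2 were high, and stroke library 3 lay just under the deeper sham library. The authors' deposited table gave Nfkbia a log2 fold change of 0.56 (SE 0.28, 95% interval 0.01 to 1.11), with p = 0.0475 before and adjusted p = 0.464 after adjustment.

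Nfkbib (ENSMUSG00000030595, chromosome 7, 28758251 to 28767512, minus strand) encodes I-kappa-B beta. It had 581, 528 and 472 normalized reads in stroke libraries 1, 2 and 3, with 520 in the deeper sham and 394 in the shallower sham, with overlapping groups. Its log2 fold change in the authors' deposited table was 0.20 (SE 0.26, 95% interval -0.30 to 0.70, adjusted p = 0.916). Exons of Nfkbib overlap those of Sirt2 and Ccer2 on the other strand. Sirt2 had a mean of 3169 in the authors' deposited table, so the same holds for the reads of Nfkbib as for those of Nfkb2.

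Nfkbie (ENSMUSG00000023947, chromosome 17, 45555703 to 45563169, plus strand) encodes I-kappa-B epsilon. Its normalized reads were 59.6, 57.5 and 86.9 in stroke libraries 1, 2 and 3, with 51.9 in the deeper sham and 32.7 in the shallower sham. The groups did not overlap, but stroke library 2 lay only slightly above the deeper sham library. The authors' deposited table gave Nfkbie a log2 fold change of 0.68 (SE 0.49, 95% interval -0.28 to 1.64, adjusted p = 0.748). With 24 to 97 reads per library, it was among the less precisely measured genes of the family.

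The nuclear I-kappa-B genes differed in their calls, and the difference between them was not tested. Bcl3 (ENSMUSG00000053175, chromosome 7, 19808462 to 19822770, minus strand) had 48.4, 69.8 and 150.5 normalized reads in stroke libraries 1, 2 and 3, with 21.2 in the deeper sham and 17.7 in the shallower sham. Every stroke library lay above both sham libraries, the sham libraries lay close together, and stroke library 3 held more than the other stroke libraries combined. The mean over stroke libraries was 89.6 ± 53.8 (SD, n = 3), from 56 to 168 reads each, against 20 and 13 reads in the sham libraries. The authors' deposited table gave Bcl3 a log2 fold change of 2.20 (SE 0.64, 95% interval 0.95 to 3.45, adjusted p = 0.0396), or 4.59-fold. In the negative binomial test the call of Bcl3 held without stroke library 1 (adjusted p = 0.0362) and was lost without the deeper sham (log2 fold change 2.34, adjusted p = 0.134), the shallower sham (2.08, adjusted p = 0.525), stroke library 3 (1.60, adjusted p = 0.288) or stroke library 2 (2.35, adjusted p = 0.0635). It was also lost when the authors' p-values were adjusted over every gene that has one (adjusted p = 0.0720).

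Nfkbiz (ENSMUSG00000035356, chromosome 16, 55811375 to 55838899, minus strand) had 149, 243 and 241 normalized reads in stroke libraries 1, 2 and 3, with 128 in the deeper sham and 161 in the shallower sham. Stroke libraries 2 and 3 were high and stroke library 1 fell between the sham libraries. Its log2 fold change in the authors' deposited table was 0.55 (SE 0.36, 95% interval -0.15 to 1.25, adjusted p = 0.685). For 7 of the 10 family genes, Nfkbiz among them, the 95% interval held a log2 fold change of 1, which is a doubling.

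Within the family, the stroke libraries did not share 1 order. Stroke library 3 was the highest stroke library for 5 genes, stroke library 1 for 3 and stroke library 2 for 2, against 44.3%, 28.4% and 27.3% of the 9743 genes with recovered reads. Rel was highest in stroke library 1, where Bcl3 and Nfkb2 were at their lowest stroke values, and lowest in stroke library 3, where Bcl3 and Nfkb2 were at their highest. Nfkbia also had its lowest stroke value in library 3. Between the sham libraries, 7 of the 10 genes were higher in the deeper one, against 52.2% of all genes with recovered reads.

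The summed normalized reads of the 10 genes were 3442, 3461 and 3360 in stroke libraries 1, 2 and 3, with 2758 in the deeper sham and 2292 in the shallower sham. The groups did not overlap, and the difference of the mean log2 values was 0.44 (exact permutation test, two-sided, p = 0.1, the smallest p this design can give, over 10 assignments). Relb made up 6.43%, 5.59% and 6.16% of the family's reads in stroke, compared with 3.80% of the deeper sham and 2.68% of the shallower. Bcl3 made up 1.41%, 2.02% and 4.48%, against 0.767% and 0.773%. Nfkbia was the largest contributor in every library, with 29.5%, 29.7% and 21.3% in stroke against 26.1% and 23.1% in sham, and its shares overlapped between the groups.

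**Figure D3:**
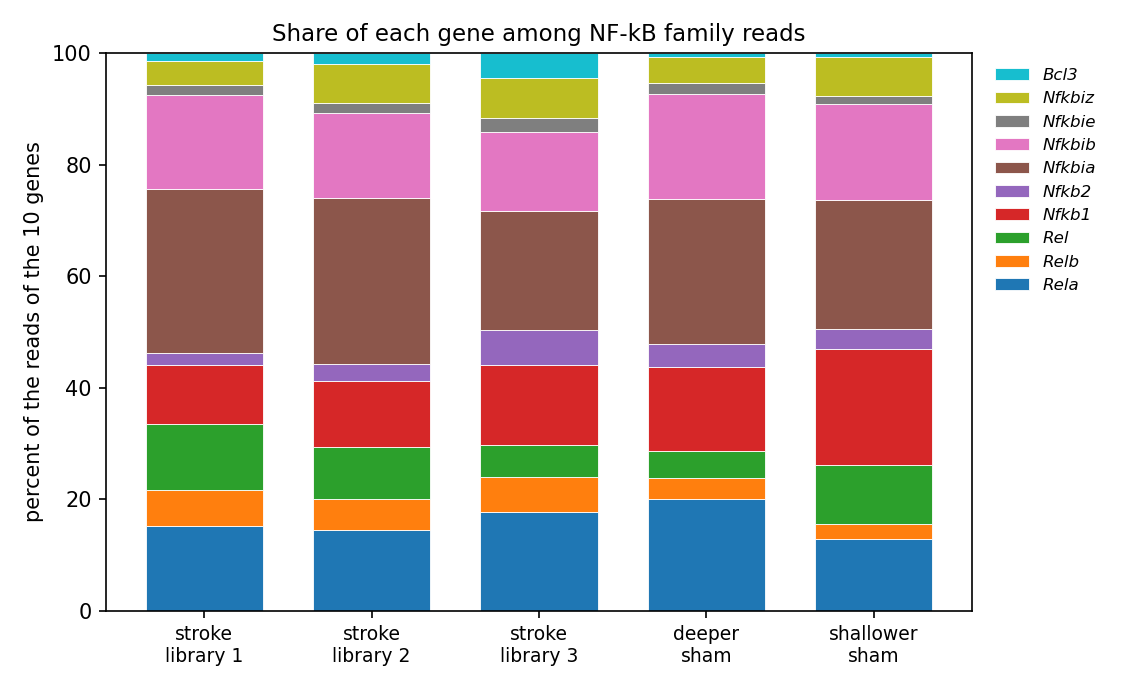
Share of each gene, in percent, among the reads of the 10 family genes (vertical axis) in each library. Nfkbia is the largest segment in all 5 libraries, and the segments of Relb and Bcl3 are thicker in the 3 stroke libraries than in the 2 sham libraries.

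Ratios of genes within a library do not depend on its size factor. Per 100 Rela reads there were 42.4, 38.5 and 34.6 Relb reads in stroke libraries 1, 2 and 3, with 18.9 in the deeper sham and 20.8 in the shallower sham. The sham values nearly coincided and lay below every stroke value, with a difference of 0.95 in log2 ratio (exact permutation p = 0.1, the smallest possible, and 0.6 after Benjamini-Hochberg adjustment over 6 ratios). Per 100 Rela reads there were 9.27, 13.9 and 25.2 Bcl3 reads in stroke, compared with 3.82 in the deeper sham and 6.02 in the shallower. These groups did not overlap either, with a difference of 1.63 in log2 ratio (exact permutation p = 0.2, adjusted p = 0.6). The other 4 ratios overlapped between the groups, with exact permutation p-values of 0.5 for Nfkb2 to Nfkb1, 0.7 for Rel to Rela, 0.7 for Nfkbia to Rela and 1.0 for Nfkbiz to Nfkbia. Rel to Rela was 78.6, 63.8 and 32.5 per 100 in stroke and 24.1 and 82.4 in sham, the widest spread within sham among the 6 ratios.

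**Figure D4:**
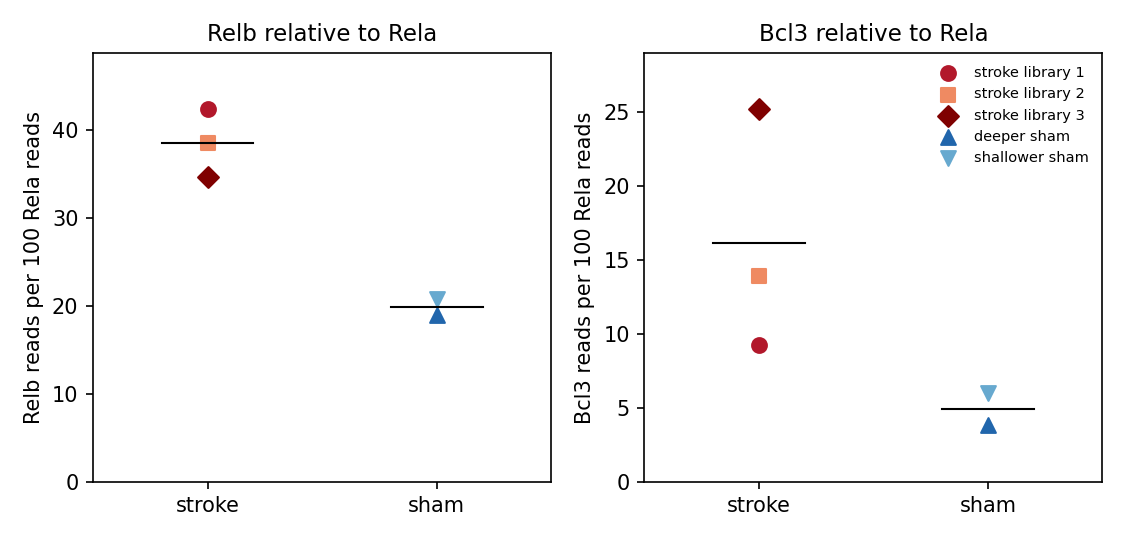
Relb reads (left) and Bcl3 reads (right) per 100 Rela reads in the same library, 1 point per library, with the group mean as a line. Stroke values of 34.6 to 42.4 for Relb and 9.27 to 25.2 for Bcl3 lie above sham values of 18.9 to 20.8 and 3.82 to 6.02.

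Levels were compared between genes as normalized reads per kilobase of exon. In sham the order of mean levels per kilobase was Nfkbia (388), Nfkbib (211), Rela (138), Nfkb1 (37.0), Nfkbiz (28.8), Rel (25.2), Relb (21.4), Nfkb2 (21.2), Nfkbie (13.9) and Bcl3 (7.85). The ranges of Nfkbiz and Rel, of Rel and Relb, and of Relb and Nfkb2 overlapped there, and the other neighbours did not. In stroke the order was Nfkbia (571), Nfkbib (243), Rela (176), Relb (53.4), Nfkbiz (42.0), Rel (41.3), Bcl3 (36.2), Nfkb1 (34.6), Nfkb2 (28.8) and Nfkbie (22.3). The first 4 were separated from their lower neighbour in these libraries, and every pair of neighbours from Nfkbiz downward overlapped. Relb moved from place 7 in sham to place 4 in stroke, and Bcl3 from place 10 to place 7. Inhibitor transcripts held the top 2 places in both groups, and Rela was the most abundant subunit transcript in both. Exon lengths were the union of annotated exons, which can exceed the transcript in use, so this order is approximate.

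Relb and Bcl3 lie 179023 bases apart on chromosome 7. Of the 13 annotated genes between them, 6 were tested and none was called by the authors' Wald test with DESeq2. Against 1829 of 17420 tested genes, none of the 6 had an unadjusted p below 0.05. Their log2 fold changes ran from -0.56 to 0.35 in the authors' deposited table, with a median of 0.09. The most abundant were Apoe, which encodes the lipid carrier apolipoprotein E (-0.06, SE 0.36), Clptm1 (0.25, SE 0.23) and Tomm40, of the mitochondrial import pore (0.24, SE 0.27).

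The genes whose 5 values lay closest to those of each called gene were found by the Euclidean distance of centred log2(normalized reads + 1) values over 5 libraries, over the 9522 genes whose mean was 10 or more. For Bcl3 the nearest was Icam1, the endothelial adhesion molecule and a known NF-kB target, at a distance of 0.34, followed by Tnfaip2 (0.55) and Ifi207 (0.58). Icam1 had 116, 173 and 355 normalized reads in stroke libraries 1, 2 and 3, with 66.7 in the deeper sham and 51.8 in the shallower sham. Icam1 ranked the stroke libraries in the same order as Bcl3, and the authors' deposited table gave Icam1 a log2 change of 1.85 (SE 0.52, adjusted p = 0.0311). It was picked for its closeness to Bcl3 in these same values, so neither that order nor its rise is a separate finding. In the negative binomial test the call of Icam1 held without stroke library 1 (adjusted p = 0.0275), and was lost without stroke library 2 (adjusted p = 0.0554), stroke library 3 (1.28, adjusted p = 0.305), the deeper sham (2.05, adjusted p = 0.0980) or the shallower sham (1.69, adjusted p = 0.541). Tnfaip2 had 19.0, 22.1 and 75.2 against 9.53 and 5.45. For Relb the nearest were Mir703 (0.23), Ndufs5, of mitochondrial complex I (0.24), and Rab43 (0.24). Ndufs5 had 264, 232 and 208 normalized reads in stroke, compared with 127 and 74.9 in sham. The distance is a description of these 5 libraries, with no test.

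Genes that act before and after the family were taken from 4 lists. Of 20 activating kinases and adaptors, such as the I-kappa-B kinase subunits, all were tested and none was called by the authors' Wald test with DESeq2. Their median log2 fold change was -0.01 in the authors' deposited table. An unadjusted p below 0.05 was seen in 2 of the 20, about the share over all genes (1829 of 17420). In 3 of 16 with recovered reads every stroke library lay above both sham libraries, against 10.7% of all tested genes with recovered reads. The most abundant were Tab2 (0.03, SE 0.21) and Map3k7 (-0.05, SE 0.24), an adaptor and the kinase TAK1 that it activates, in the authors' deposited table. Map3k14, the NIK kinase that drives the alternative pathway of Relb and Nfkb2, and Birc3, an NF-kB target that acts in the degradation of NIK, were the 2 with an unadjusted p below 0.05, and are named after their values were seen. Map3k14 had 165, 140 and 276 normalized reads in stroke libraries 1, 2 and 3, with 105 in the deeper sham and 89.9 in the shallower sham (per the authors' deposited table, log2 change 0.99, SE 0.41, adjusted p = 0.276). Birc3 had 130, 156 and 113 against 49.7 and 73.6 (per the authors' deposited table, log2 change 1.12, SE 0.39, adjusted p = 0.144). Neither passed the threshold, and the groups did not overlap for either.

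Of 6 genes of I-kappa-B turnover, the ubiquitin ligase SCF with beta-TrCP, none was called by the authors' Wald test with DESeq2. Against 1829 of 17420 tested genes, none of the 6 had an unadjusted p below 0.05. Their log2 fold changes ran from -0.06 to 0.19 in the authors' deposited table, with standard errors of 0.18 to 0.28, a narrower range than that of the family. Skp1a, the adaptor of the ligase, had -0.06 (SE 0.28), and Fbxw11, which encodes 1 of the beta-TrCP proteins, had 0.11 (SE 0.18) in the authors' deposited table. For Trim9 itself the authors' deposited table held a log2 change of 1.04 (SE 0.18, adjusted p = 1.1e-05).

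Of 17 further inhibitors and ubiquitin regulators, 16 were tested and none was called by the authors' Wald test with DESeq2. Against 1829 of 17420 tested genes, none of the 16 had an unadjusted p below 0.05. Their median log2 fold change was 0.12 in the authors' deposited table. In 4 of 10 with recovered reads every stroke library lay above both sham libraries, against 10.7% of all tested genes with recovered reads. With so few genes this difference was not tested. The most abundant were Rnf11 (0.22, SE 0.18) and Cyld, a deubiquitinase that limits the pathway (-0.04, SE 0.29), in the authors' deposited table.

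NF-kB target genes held every call among the 4 lists. Of 30 listed, 24 were tested, 7 rose and none fell, against 0.775% of all tested genes called higher. The median log2 fold change was 1.54 in the authors' deposited table. The lowest mean tested was 9.19, so targets low in sham, such as Il6 (3.18 and 1.36), were tested only where stroke reads were high. This filter can raise the median and the counts given here. Of the untested, Nos2 had -0.09, Bcl2a1b 0.11, Cd40 0.40, Ccl5 0.53 and Cxcl2 5.75, and Csf2 had no reads. In 9 of 20 tested targets with recovered reads every stroke library lay above both sham libraries, against 10.7% of all tested genes with recovered reads. Gadd45b, a stress-induced regulator of survival, had 768, 842 and 449 normalized reads in stroke libraries 1, 2 and 3, with 159 in the deeper sham and 105 in the shallower sham (per the authors' deposited table, log2 change 2.38, SE 0.37, adjusted p = 1.22e-07). Its call held with each library left out in turn, without the deeper sham too (log2 change 2.71, adjusted p = 3.11e-05). Ier3, an early response gene, had 310, 322 and 317 against 133 and 151 (per the authors' deposited table, log2 change 1.16, SE 0.26, adjusted p = 0.00248), with stroke values that lay close together as those of Relb did. The call of Ier3 was lost without the deeper sham library (1.06, adjusted p = 0.0766) and held without each of the others. Ccl2, a monocyte attractant, was highest in stroke library 3, like Bcl3, and the authors' deposited table gave it a log2 change of 5.39 (SE 1.07, adjusted p = 0.000244). It had 31.1, 82.2 and 173 normalized reads in stroke, 4.23 in the deeper sham and 0 in the shallower, so its fold rests on few sham reads. Without the shallower sham library the log2 change was 4.49 (adjusted p = 0.0471) and without stroke library 3 it was 4.64 (adjusted p = 0.0133), while without the deeper sham library (adjusted p = 0.0289) the sham value left is 0 and no fold is given. The other 4 that rose, named after their values were seen, were Ccl3, Ccl4, Icam1 and Ptgs2. Without the deeper sham library the calls of Ccl3 (adjusted p = 0.146) and Ptgs2 (adjusted p = 0.384) were lost, and Ccl4 has no recovered reads. The most abundant uncalled targets were Sod2 (-0.23, SE 0.29) and Bcl2l1 (-0.04, SE 0.23) in the authors' deposited table. The negative binomial test needs recovered reads and covered 47 genes of the 4 lists, against 66 in the authors' test. In the negative binomial test 2 to 6 genes of the 4 lists were called with 1 library left out, with 2 without the deeper sham library.

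**Figure D5:**
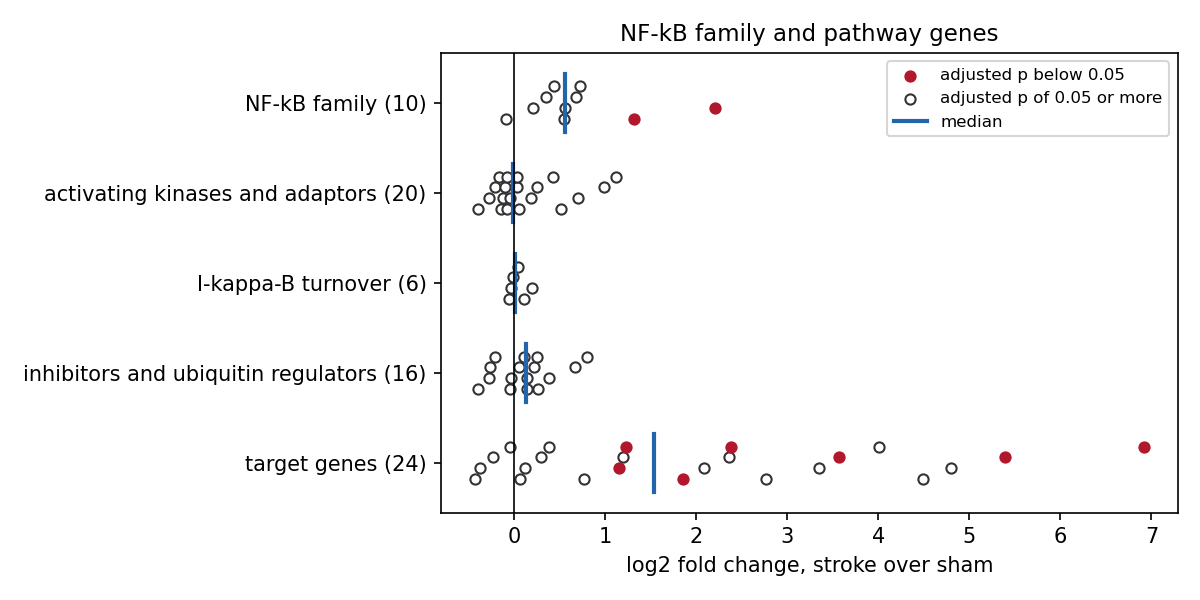
Log2 fold change of stroke over sham in the authors' deposited table (horizontal axis) for the tested genes of the family and of 4 pathway lists, with the number tested in parentheses. Filled points passed an adjusted p of 0.05, and the blue line marks each median, which was 0.55 for the family, -0.01, 0.01 and 0.12 for the genes that act on it and 1.54 for the targets. The lowest mean tested was 9.19, and this filter can raise the median of the targets.

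Markers of the cell types that could carry these transcripts were read beside them. Over all 17420 tested genes, 1.56% were called in either direction and 1829 had an unadjusted p below 0.05. Of 8 microglial markers none was called by the authors' Wald test with DESeq2 and 2 had an unadjusted p below 0.05, with a median log2 fold change of 0.41 in the authors' deposited table and summed normalized reads, over the 6 with recovered reads, of 3013 to 3537 in stroke and of 3675 in the deeper sham and 1664 in the shallower, so that the groups overlapped. Of 8 endothelial markers none was called by the same test and 2 had an unadjusted p below 0.05, with a median of 0.34 in the authors' deposited table. Sums over 6 markers were 2721 to 3415 in stroke against 2078 and 2623 in sham, and did not overlap. That separation rested on Cdh5, with 659 in stroke library 1 against 371 in the shallower sham, a wider gap than that of the sums. The 2 most abundant endothelial markers, Slc2a1 and Flt1, have no recovered reads and are not in the sums. Of 8 neutrophil and lymphocyte markers 2 were tested and neither was called, Nkg7 was at 0 in every library, and the 6 with recovered reads summed to 52.0 to 114 normalized reads in stroke and to 68.8 and 20.4 in sham. No call was made among 8 neuronal, 8 astrocyte and 8 oligodendrocyte markers, with medians of 0.18, -0.11 and -0.19 in the authors' deposited table, and 1 of them, a neuronal gene, had an unadjusted p below 0.05. Of 8 choroid plexus markers 2 were called, Ttr and Folr1, both lower in stroke. Folr1 had 111 normalized reads in the deeper sham, 5.45 in the shallower and 3.46 to 3.58 in stroke, and without the deeper sham library its log2 change was -0.63 (adjusted p = 0.895). The part of microglia and endothelium in the rise of Relb and Bcl3 was not tested.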

How the data were processed

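RNA sequencing of 5 mouse libraries was analysed from 1 deposited table. Per the labels' protocols, TRIzol and then RNeasy columns were used to extract RNA, and a KAPA stranded kit for mRNA to make libraries. Per the submitters' processing notes, the authors used STAR 2.5.2b, featureCounts 1.5.1 and DESeq2 1.14.1, with FastQC, on GRCm38. Per the file headers, the authors' values are a signal for each gene (mean read counts over all libraries after division by size factors), a log2 fold change and its standard error, a Wald score, a p-value and a Benjamini-Hochberg adjusted p-value. Positive fold changes were read as higher in stroke, since genes with 1 read in 1 library took 3 positive and 2 negative values.

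The 10 genes, the gene lists and the rules were chosen with earlier results of these data known. The rule for other named genes took up to 3 called and 2 abundant uncalled genes of each pathway list, the most abundant marker of each cell type, Trim9, the genes nearest to a called gene and the genes between Relb and Bcl3. The value of 1 gene that this rule names is not reported here.

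Whole reads were searched for with numba 0.67.0 (Python 3.11.15), and 5 counts were kept where no other 5 gave the same deposited mean, standard error and log2 fold change (tolerance 2e-09). All genes with an adjusted p-value and a mean of up to 500 were tried. Listed genes and genes between Relb and Bcl3 were tried up to a mean of 1300. Abundant genes therefore have no values per library. After the means of 400 genes had been shifted on purpose, 1 was accepted, against 399 unshifted, and the search found 172 of 172 sets of reads drawn at random with known answers. CPM are relative to the sum of all means, 2.65e+07. The total depth of each library is not given in the sources used here.

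Calls are the authors' Wald test at an adjusted p below 0.05. Alternatives were other sets of genes to adjust over, a fold of 1.5, centring, limma 3.58.1 (R 4.3.3) on log2(normalized reads + 1) and, chosen after seeing the data, a negative binomial Wald test on recovered reads. On simulated reads for stroke against sham, limma over 9221 genes called 9.09% of changes of 2-fold and 50% of 4-fold, and the negative binomial test over 9743 genes 11% and 60%. Gene positions and exon lengths are from GENCODE M21 (GRCm38), which held 51633 of the 51912 gene IDs.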

Additional observations from a re-analysis of the deposited data

How the results depend on the processing

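The count of family genes called, 2 as reported, was 2 with fold changes centred on their median. The negative binomial test, chosen after seeing the data, rebuilds the authors' test from the deposited standard error, so its 2 calls with all libraries are no further support. It was 1 with adjustment over every gene with a p-value and 1 when only means of 5 CPM or more were tested, where Bcl3, Nfkb2 and Nfkbie were not tested. It was 0 against a fold of 1.5 (Relb adjusted p = 1, Bcl3 adjusted p = 0.789), where 27 genes were called in all and 2 family genes had an unadjusted p below 0.05. Limma on recovered reads called 0 of the 10 with each pseudocount (0.5, 1 and 2) and without a filter, with 3 of them at an unadjusted p below 0.05 in each, and called 1 of 9522 genes in all. Leaving out each library in turn gave 0 to 2 calls with limma and 0 to 1 with the negative binomial test. The 2 limma calls came without the deeper sham library, where 17.9% of all genes were called. Those 2 calls were Relb and Rela, and Bcl3 was not called there. Where 1 sham library is left, it is assumed to vary like the stroke libraries. The 7 calls in the pathway lists became 5 over every gene with a p-value, 4 at means of 5 CPM or more, 2 against a fold of 1.5, 8 with centring, 7 with the negative binomial test and 2 to 6 with each library left out in turn. The negative binomial test covered 47 genes of the pathway lists, against 66 in the authors' test, so these counts are over unlike sets. Its 7 calls with all libraries include Cxcl1 (adjusted p = 0.0433, against 0.0508 in the authors' test) and not Ccl4, which has no recovered reads. Reads were found for 10 of the 10 family genes with a tolerance 10 times wider and for 5 with a tolerance 10 times narrower. Of 187 values of single family genes under an alternative, 152 kept their direction and side of the threshold, 28 lost a call, 1 gained a call (Rela with limma without the deeper sham library) and 6 changed sign. The last were Rela and Nfkb1 without the shallower sham library (adjusted p = 0.927 and 0.985 with limma, 0.998 for both with the negative binomial test) and Nfkb2 without stroke library 3 (adjusted p = 0.970 and 0.983). The causes were not tested. No paired analysis was possible because the deposited table ties no value to a replicate number. Depth limits the values of Bcl3, which had 13 and 20 reads in the sham libraries.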
